A study of Mus musculus with 8 samples.

Results

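The 37 genes described here encode the proteins that license origins of DNA replication, build the replication fork and copy and join the new strands. They were chosen by name, as 10 groups by role, with earlier results of these data known, and the rule itself uses no measured value. A gene was found where an array probe carried its name, and Orc and Mcm names with a final l or d, such as Orc1l, were accepted. Of the 37 genes, 35 had such a probe, on 56 of the 41174 probes of the array, whose tested probes carry 18100 gene names. Gins2 and Rfc1 were listed on the array under older names and were found only through the accession or synonym that a RefSeq gene table pairs with each symbol. Each gene was represented by its brightest probe, and all 35 of these stood well above background on every one of the 8 arrays, so none was lost to the filter on dim probes. Total RNA came from whole testes of male mice at postnatal day 8, with 4 biological replicates of wild type mice and 4 of VRK1-deficient mice, and each replicate was hybridized to its own 1-color Agilent array. The VRK1-deficient line came from 1 gene-trapped ES cell clone with a β-geo insertion in an intron of Vrk1, backcrossed to C57BL/6. The insertion is present in every tissue, and the line is a hypomorph that keeps some full length VRK1. Neither genotype received a treatment.

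Replication starts at origins that are licensed before S phase. The origin recognition complex (ORC) marks an origin, and CDC6 and CDT1 help it to load the MCM2-7 helicase, a step that geminin blocks by binding CDT1. The DDK kinase and the GINS complex then turn the loaded helicase into an active fork. There polymerase alpha and primase lay the primers, and polymerases delta and epsilon copy DNA with the PCNA clamp. Transcription of many of these genes is driven by E2F factors late in G1 phase. In the testis at this age spermatogonia divide by mitosis, the first spermatocytes copy their DNA before meiosis, and Sertoli cells still divide, so whole testis RNA holds replication transcripts of germ cells and of somatic cells.

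The values are log2 signals minus the log2 of the 75th percentile of the same array, and a difference is VRK1-deficient minus wild type unless stated otherwise. Vrk1, the targeted gene, read -0.20, -0.11, 0.59 and 0.35 on wild type arrays 1 to 4 and -3.97, -3.68, -3.58 and -4.17 on VRK1-deficient arrays 1 to 4. The genotypes were far apart, with a log2 difference of -4.00 ± 0.21 (SE) and a limma adjusted p of 0.000135, in the direction that the labels of all 8 arrays give. The VRK1-deficient arrays lay at array positions 3 and 4 of both slides and the wild type arrays at positions 1 and 2, so genotype and array position cannot be told apart. Wild type replicate 1 was closer to the VRK1-deficient arrays than to the other wild type arrays. Over the tested probes its Pearson correlation was 0.987 to 0.990 with the VRK1-deficient arrays and 0.970 to 0.986 with the other wild type arrays. The other wild type arrays also differed among themselves. Wild type replicate 2 correlated at 0.987 with VRK1-deficient replicate 2, at 0.984 with wild type replicate 3 and at 0.994 with wild type replicate 4. Calls and list medians are given with and without wild type replicate 1. As this array was singled out for its likeness to the VRK1-deficient arrays, leaving it out favors larger genotype differences. Over all tested probes the calls then rose from 986 to 7659 (28.4%). Values without it are thus a description and no independent support for a difference. For Vrk1 the adjusted p without it was 0.000302. In whole testis RNA, fewer cells of a type and less RNA per cell cannot be told apart.

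The promoters of these genes hold the letters that E2F factors bind more often than promoters in general. Stretches of 5 are shown, those of genes with array values printed below and a match before the start. Mcm8 and Lig1 are not shown because their matches lie after the start. The words searched were TTTCCCGC, TTTCGCGC, TTTGCCGC and TTTGGCGC on both strands, and matches may overlap. RefSeq promoters, from 250 bases before to 50 bases after a transcription start on build GRCm38.p6, were at hand for 30 of the 37 genes, and not for Rfc2, Gins2, Mcm4, Gins4, Pole, Gins1 and Gmnn. Of the 30 genes, 14 had a match (46.7%), against 704 of all 27025 genes with a promoter (2.60%) and 2.26% of all 32851 promoters. These 14 genes were Mcm3, Mcm5, Mcm6, Mcm7, Mcm8, Orc1, Orc3, Cdc6, Cdt1, Gins3, Rfc3, Pola1, Pold1 and Lig1. The pentamer CCAAT, searched on both strands, was present in 19 of the 30 (63.3%) and in 41.1% of all genes. A match is a description of the letters only. The matches of Orc1, Mcm5, Gins3, Cdc6 and Pola1 lie before the start, and each stretch below is written 5′ to 3′ on the strand of its gene, with the E2F letters in capitals. In Mcm5 the capitals are 2 matches that overlap, one on each strand.
Orc1: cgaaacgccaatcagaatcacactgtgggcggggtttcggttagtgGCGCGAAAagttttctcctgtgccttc
Mcm5: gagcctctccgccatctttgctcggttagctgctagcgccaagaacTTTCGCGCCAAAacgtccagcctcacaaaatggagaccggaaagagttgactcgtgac
Gins3: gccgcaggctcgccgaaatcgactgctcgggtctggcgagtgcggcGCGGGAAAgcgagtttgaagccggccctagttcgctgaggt
Cdc6: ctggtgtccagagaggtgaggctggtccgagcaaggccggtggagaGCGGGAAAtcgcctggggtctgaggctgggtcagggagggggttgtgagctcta
Pola1: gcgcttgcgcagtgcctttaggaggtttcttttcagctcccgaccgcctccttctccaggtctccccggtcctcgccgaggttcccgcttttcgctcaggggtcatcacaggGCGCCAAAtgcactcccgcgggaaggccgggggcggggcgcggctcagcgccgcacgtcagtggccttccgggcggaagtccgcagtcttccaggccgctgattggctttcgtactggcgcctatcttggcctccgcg
The Orc1 stretch lies at chr4:108579381-108579453, that of Mcm5 at chr8:75109310-75109413, that of Gins3 at chr8:95633472-95633558 and that of Cdc6 at chr11:98907967-98908066, all on the plus strand. The Pola1 stretch holds all 250 bases before the start and lies on the minus strand at chrX:93632156-93632405.

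Between genotypes, 1 of the 35 genes was called at a limma adjusted p under 0.05, and it was higher in VRK1-deficient testes. This gene was Pola1. Over all 26962 tested probes, 3.66% were called, 1.67% as higher and 1.98% as lower, so a single call among 35 genes (2.86%) is near the background. Of the other 34 genes, 32 had a mean below that of wild type and 2 (Orc2 and Orc5) a mean above it, and none of these 34 differences passed the test. The median log2 difference of the 35 genes was -0.18, with a range from -0.80 to 0.53, beside 0.041 over all tested probes, of which 45.5% were below 0. At an unadjusted limma p under 0.05, 6 genes were lower and 1 higher, while 28.8% of all tested probes reached that p in either direction. When the arrays were scaled otherwise, 32 genes were lower after quantile normalization, 32 after normexp and 33 without scaling, where the median of all probes shifted by -0.18. Scaling by a percentile moves all probes of an array alike, so the distance of -0.22 between the median of the 35 genes and that of all probes is the same with and without it by construction. The genotypes did not overlap, meaning that all 4 arrays of one lay outside the range of the other, for 5 of the 35 genes, 3 of them lower (Cdt1, Rfc5 and Pold1) and 2 higher (Pola1 and Orc2). Over all tested probes this held for 16.7%, with 7.31% lower and 9.39% higher.

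**Figure D1:**
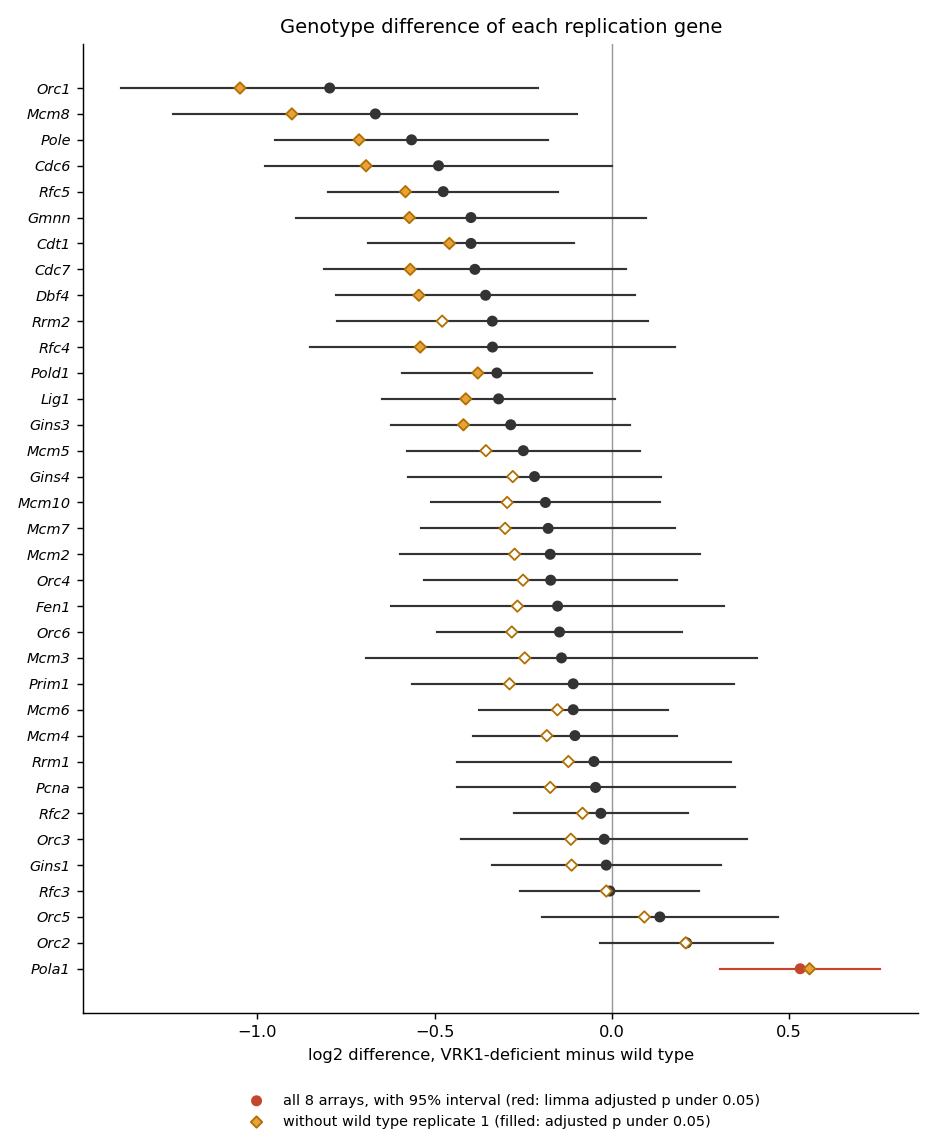
Log2 difference between VRK1-deficient and wild type testes for each of the 35 genes, ordered by size. Circles with bars are the limma estimates from all 8 arrays with 95% intervals, and diamonds leave out wild type replicate 1. Pola1 (red) is the single gene with an adjusted p under 0.05 from all 8 arrays, and 14 diamonds are filled because their adjusted p was under 0.05.

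Pola1, the catalytic subunit of DNA polymerase alpha, which with primase lays the primers for both strands, was the gene furthest above wild type, and Orc2 and Orc5 were the others above it. Its single probe (mm7 chrX:88691502-88691561) read 0.14, -0.0023, 0.030 and 0.072 on wild type arrays 1 to 4 and 0.55, 0.59, 0.71 and 0.52 on VRK1-deficient arrays 1 to 4. All 4 VRK1-deficient arrays lay above all 4 wild type arrays, and the lowest of the former and the highest of the latter were 0.52 and 0.14. The log2 difference was 0.53 ± 0.10 (SE), with a 95% interval from 0.30 to 0.76 and a limma adjusted p of 0.0446, which is a signal at 144% of wild type. It was 0.50 on slide 1 and 0.56 on slide 2. The call was kept without wild type replicate 1 (adjusted p 0.0073). It was lost when any other single array was left out (adjusted p 0.0599 to 0.147), with log2 differences of 0.49 to 0.56. In those latter fits at most 0.252% of all tested probes were called, so the loss was not particular to Pola1. Without scaling between arrays the difference was 0.35 and the adjusted p 0.357. With no filter on dim probes the adjusted p was 0.0889.

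Of the 35 genes, the other polymerase and primase genes (Pole, Pold1 and Prim1) had means below wild type. Pole, the catalytic subunit of polymerase epsilon, which copies the leading strand, read 3.16, 3.73, 3.87 and 3.65 on wild type arrays 1 to 4 and 2.93, 3.17, 3.22 and 2.85 on VRK1-deficient arrays 1 to 4. Only VRK1-deficient replicates 2 and 3 reached the level of wild type replicate 1, and the other 3 wild type arrays were above all VRK1-deficient arrays. Its log2 difference was -0.57 ± 0.17 (SE) with a limma adjusted p of 0.0786, and -0.71 with an adjusted p of 0.00756 without wild type replicate 1. Over all alternatives the adjusted p ran from 0.00756 to 0.558, and it was 0.0448 with normexp. Pold1, the catalytic subunit of polymerase delta on the lagging strand, had a log2 difference of -0.32 ± 0.12 (SE) (adjusted p 0.117), and its VRK1-deficient range of 4.30 to 4.49 lay below its wild type range of 4.55 to 4.93. Prim1, the catalytic subunit of primase, had a difference of -0.11 ± 0.20 (SE) (adjusted p 0.742), and its genotypes overlapped widely. Pola1 and Prim1, which work in the same complex, thus had differences of opposite sign, and the difference between them was not tested. Accessory subunits lay on both sides of wild type. Pold4, a small subunit of polymerase delta, had a difference of 0.53 ± 0.13 (SE) (adjusted p 0.0528), and its genotypes did not overlap. The differences were 0.19 for both Pole2 and Pole3, -0.18 for Pole4, -0.46 for Pold3, -0.025 for Pold2 and -0.066 for Pola2.

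Among the 6 subunits of ORC, Orc1 had the lowest signals in VRK1-deficient testes relative to wild type. Orc1, an ATPase subunit whose level in other cells follows the cell cycle, read -1.12, -0.12, -0.32 and 0.098 on wild type arrays 1 to 4 and -1.45, -0.90, -0.94 and -1.36 on VRK1-deficient arrays 1 to 4. Wild type replicate 1 lay among the VRK1-deficient arrays, and the other 3 wild type arrays were above all of them. The log2 difference was -0.80 ± 0.26 (SE), a signal at 57.6% of wild type and the largest absolute difference of the 35 genes, but the limma adjusted p was 0.0934. Without wild type replicate 1 it was -1.05, with an adjusted p of 0.00592, and over all alternatives the adjusted p ran from 0.00592 to 0.600. The brightest probes of the other 5 subunits gave differences from -0.17 to 0.21. Orc2 was 0.21 ± 0.11 (SE) (adjusted p 0.228), and its 4 VRK1-deficient arrays, from 1.18 to 1.42, lay just above its 4 wild type arrays, from 0.94 to 1.17. The difference was 0.14 for Orc5 (-0.044 without scaling), -0.022 for Orc3, -0.17 for Orc4 and -0.15 for Orc6, with adjusted p values between 0.490 and 0.948. By the brightest probe, 4 of the 6 subunits had a mean below wild type and 2 a mean above it, and none was called. This count depends on the probe. A dimmer Orc3 probe gave 0.57 (adjusted p 0.0568) and a dimmer Orc4 probe 0.33 (adjusted p 0.152), both with no overlap between genotypes, and with the mean of all probes Orc3 was 0.17, so that 3 subunits were lower and 3 higher.

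The factors that load the helicase and their inhibitor all had lower means in VRK1-deficient testes. Cdc6, the ATPase that joins ORC at the origin, read -0.70, 0.076, -0.057 and 0.32 on wild type arrays 1 to 4 and -0.73, -0.39, -0.40 and -0.80 on VRK1-deficient arrays 1 to 4. Its VRK1-deficient arrays lay below wild type replicates 2 to 4 and on both sides of wild type replicate 1. The log2 difference was -0.49 ± 0.22 (SE) (limma adjusted p 0.174), and -0.69 (adjusted p 0.0141) without wild type replicate 1, over a range of adjusted p from 0.0141 to 0.746 in all alternatives. A second, dimmer Cdc6 probe went the other way, with a difference of 0.76 ± 0.24 (SE) and an adjusted p of 0.0826, so the direction for Cdc6 depends on the probe. Cdt1, which brings the helicase to the origin, had a difference of -0.40 ± 0.13 (SE) (adjusted p 0.0902). Its VRK1-deficient arrays spanned only 3.31 to 3.39 and its wild type arrays 3.55 to 3.96, and it had nearly the same difference on slide 1 (-0.39) and slide 2 (-0.40). Gmnn, which encodes geminin, had a difference of -0.40 ± 0.22 (SE) (adjusted p 0.257), with -0.11 on slide 1 and -0.69 on slide 2. The loading factor and its inhibitor therefore had mean differences of the same size.

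The 6 subunits of the MCM2-7 helicase, which unwinds DNA at the fork, all had small negative differences, from -0.25 to -0.10, and none was called or free of overlap. Mcm5, the subunit furthest from wild type, read 3.80, 4.19, 4.24 and 4.25 on wild type arrays 1 to 4 and 3.74, 3.97, 4.08 and 3.70 on VRK1-deficient arrays 1 to 4. Wild type replicate 1 was 0.39 below the next wild type array and lay within the VRK1-deficient range. The log2 difference was -0.25 ± 0.15 (SE) (limma adjusted p 0.283), and -0.36 (adjusted p 0.0654) without that array, with a range from 0.0654 to 0.774 over all alternatives. Mcm2, used in histology as a marker of licensed and dividing cells, read 2.40, 2.61, 2.67 and 3.13 on wild type arrays 1 to 4 and 2.25, 2.57, 2.87 and 2.42 on VRK1-deficient arrays 1 to 4. Both genotypes spread over more than the difference between them, which was -0.17 ± 0.19 (SE) (adjusted p 0.561), with a 95% interval from -0.60 to 0.25. The differences were -0.14 for Mcm3, -0.10 for Mcm4, -0.11 for Mcm6 and -0.18 for Mcm7. For the whole complex the signal of the VRK1-deficient testes was thus between 84.1% and 93.0% of wild type.

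Of the MCM relatives outside the hexamer, Mcm8 was further from wild type than any MCM2-7 subunit, and Mcm9 and Mcm10 were not further than Mcm5. Mcm8, which acts with Mcm9 in homologous recombination and is needed for germ cells, read 0.87, 1.5, 1.93 and 2.00 on wild type arrays 1 to 4 and 0.78, 1.07, 1.18 and 0.61 on VRK1-deficient arrays 1 to 4. Wild type replicates 2 to 4 were above all VRK1-deficient arrays, and wild type replicate 1 was not. Its log2 difference was -0.67 ± 0.25 (SE) (limma adjusted p 0.128), the second largest of the 35 genes, and -0.90 (adjusted p 0.0103) without wild type replicate 1, with adjusted p values from 0.0103 to 0.694 over all alternatives. A second Mcm8 probe gave -0.77 ± 0.18 (SE) (limma adjusted p 0.0508), and on that probe the genotypes did not overlap. Its recombination partner Mcm9 had a difference of 0.21 ± 0.13 (SE) (adjusted p 0.298), of opposite sign. Mcm10, which takes part in the activation of the helicase, had a difference of -0.19 ± 0.14 (SE) (adjusted p 0.407).

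The kinase and the GINS complex, which activate the loaded helicase, had means below wild type for each subunit found by name. Cdc7, the catalytic subunit of DDK, read -0.58, -0.0029, 0.22 and 0.24 on wild type arrays 1 to 4 and -0.63, -0.40, -0.30 and -0.34 on VRK1-deficient arrays 1 to 4. Its regulatory subunit Dbf4 had a nearly equal difference, -0.36 ± 0.19 (SE) (limma adjusted p 0.238) beside -0.39 ± 0.19 (SE) (adjusted p 0.208) for Cdc7. In both genes wild type replicates 2 to 4 were above every VRK1-deficient array, whereas wild type replicate 1 was within the VRK1-deficient range for Cdc7 and below it for Dbf4. Without that array the differences were -0.57 (adjusted p 0.0137) for Cdc7 and -0.54 (adjusted p 0.0116) for Dbf4, and over all alternatives the adjusted p ran from 0.0137 to 0.712 and from 0.0116 to 0.948. Gins3, a GINS subunit, read -0.72, -0.27, -0.16 and -0.14 on wild type arrays 1 to 4 and -0.76, -0.50, -0.56 and -0.62 on VRK1-deficient arrays 1 to 4. Its difference was -0.29 ± 0.15 (SE) (adjusted p 0.238), against -0.22 ± 0.16 (SE) for Gins4 and -0.016 ± 0.14 (SE) for Gins1. Of these subunits of 1 complex, Gins1 lay closest to wild type, and differences between subunits were not tested. Gins2, found through the RefSeq table, had a difference of 0.10 ± 0.12 (SE).

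Of the clamp and the complex that loads it, Rfc5 was furthest from wild type. Rfc5, a small subunit of the clamp loader, read 2.86, 3.31, 3.40 and 3.16 on wild type arrays 1 to 4 and 2.54, 2.82, 2.83 and 2.63 on VRK1-deficient arrays 1 to 4. All VRK1-deficient arrays were below all wild type arrays, although the nearest of them, at 2.83 and 2.86, were close. The log2 difference was -0.48 ± 0.14 (SE) (limma adjusted p 0.0786), with -0.40 on slide 1 and -0.55 on slide 2, and -0.58 (adjusted p 0.0116) without wild type replicate 1, with a range from 0.0116 to 0.531 over all alternatives. Pcna, the sliding clamp and a common marker of proliferating spermatogonia, read 4.12, 4.50, 4.74 and 4.64 on wild type arrays 1 to 4 and 4.43, 4.61, 4.66 and 4.12 on VRK1-deficient arrays 1 to 4. The arrays of the genotypes covered nearly the same range, and the difference was -0.046 ± 0.17 (SE) (adjusted p 0.879). Its 95% interval ran from -0.44 to 0.35. The other loader subunits had differences of -0.34 ± 0.23 (SE) for Rfc4, -0.031 ± 0.11 (SE) for Rfc2 and -0.0059 ± 0.11 (SE) for Rfc3, and -0.15 ± 0.13 (SE) for Rfc1, which was found through the RefSeq table. Of the loader genes, Rfc5 and Rfc4 were thus further from wild type than Rfc2 and Rfc3.

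Ribonucleotide reductase, which makes the deoxynucleotides for replication, and the enzymes that finish Okazaki fragments had 4 negative differences, none of them called. Rrm2, the small subunit of the reductase that is limited to S phase, read -0.35, -0.18, 0.47 and 0.35 on wild type arrays 1 to 4 and -0.40, -0.38, -0.17 and -0.11 on VRK1-deficient arrays 1 to 4. Wild type replicates 1 and 2 lay within the VRK1-deficient range, and replicates 3 and 4 were above it. The difference was -0.34 ± 0.19 (SE) (limma adjusted p 0.278), and that of the large subunit Rrm1 was -0.051 ± 0.17 (SE). Lig1, the ligase that seals nicks between Okazaki fragments, read 4.71, 5.04, 5.21 and 5.0 on wild type arrays 1 to 4 and 4.66, 4.78, 4.84 and 4.42 on VRK1-deficient arrays 1 to 4. Its difference was -0.32 ± 0.15 (SE) (adjusted p 0.182), and that of Fen1, the nuclease that trims their flaps, was -0.15 ± 0.21 (SE). Wild type replicate 1 was the lowest wild type array for Lig1 and within the VRK1-deficient range.

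**Figure D2:**
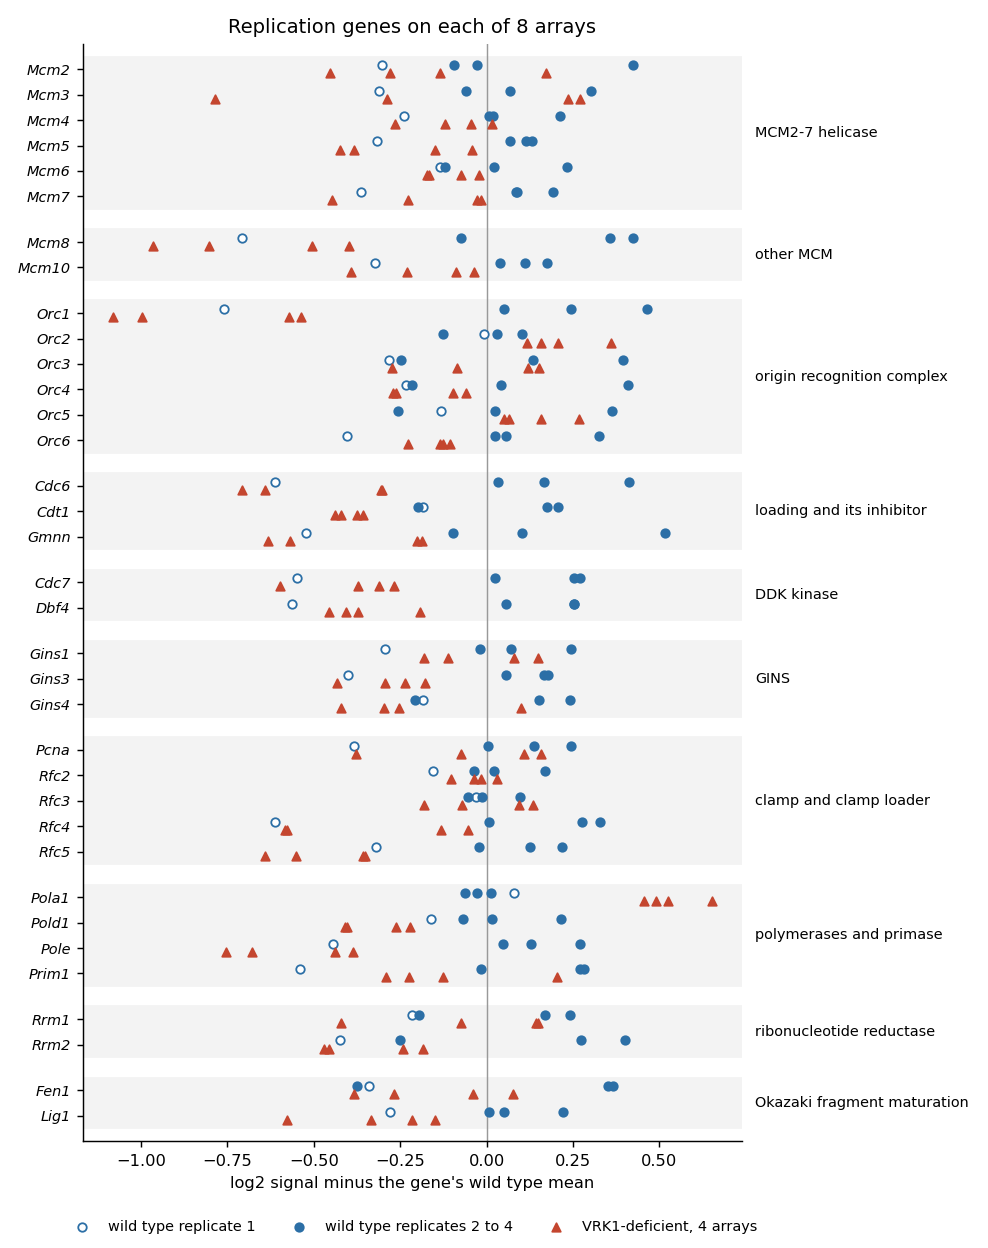
Log2 signal of each gene on each array, minus the mean of its 4 wild type arrays, grouped by role. Circles are wild type arrays, with replicate 1 open, and triangles are VRK1-deficient arrays. Wild type replicate 1 is the lowest wild type array for 28 of the 35 genes, and all 4 Pola1 triangles lie right of all its circles.

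The spread within each genotype was shared by most of these genes. Wild type replicate 1 was the lowest wild type array for 28 of the 35 genes, while this held for 30.7% of all tested probes, and it was at or below the highest VRK1-deficient array for 32 of the 35. Among the VRK1-deficient arrays, the lowest was replicate 1 for 17 genes and replicate 4 for the other 18. For 20 genes all 4 VRK1-deficient arrays were below the wild type mean, and for 3 (Pola1, Orc2 and Orc5) all 4 were above it. Apart from the 30.7%, shares over all tested probes were not computed for these counts. They therefore cannot be set against the background. Without wild type replicate 1, 14 of the 35 genes were called, 13 lower and 1 higher. The 13 were Orc1, Cdc6, Cdt1, Gmnn, Mcm8, Cdc7, Dbf4, Gins3, Rfc4, Rfc5, Pold1, Pole and Lig1, and none of the MCM2-7 subunits was among them. In that fit 14.7% of all tested probes were called lower and 13.7% higher. The median difference of the 35 genes was then -0.29, against 0.069 over all tested probes. When any other single array was left out, 0 of the 35 genes were called with limma, and 5 to 8 had an unadjusted p under 0.05. In those fits only 3 to 68 of all 26962 tested probes were called, at most 0.252%. A count of 0 among 35 genes is therefore near the background there.

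The genotype difference was negative for 22 of the 35 genes on slide 1, with a median of -0.074, and for 32 on slide 2, with a median of -0.34. Slide 1 holds wild type replicate 1. Over all tested probes the medians were -0.00099 and 0.069. The difference between slides was itself tested with an interaction term in limma, and 0 of the 35 genes passed, with 0 at an unadjusted p under 0.05 and a lowest adjusted p of 0.728. Over all 26962 tested probes 0 passed as well, and 5.47% had an unadjusted p under 0.05. As no probe passed, this test cannot tell whether the slides agree for these genes. Pola1, Orc2 and Cdt1 had nearly equal differences on both slides. Mcm8 had -0.26 on slide 1 and -1.07 on slide 2, and Rrm1 had opposite signs, with 0.24 and -0.34.

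**Figure D3:**
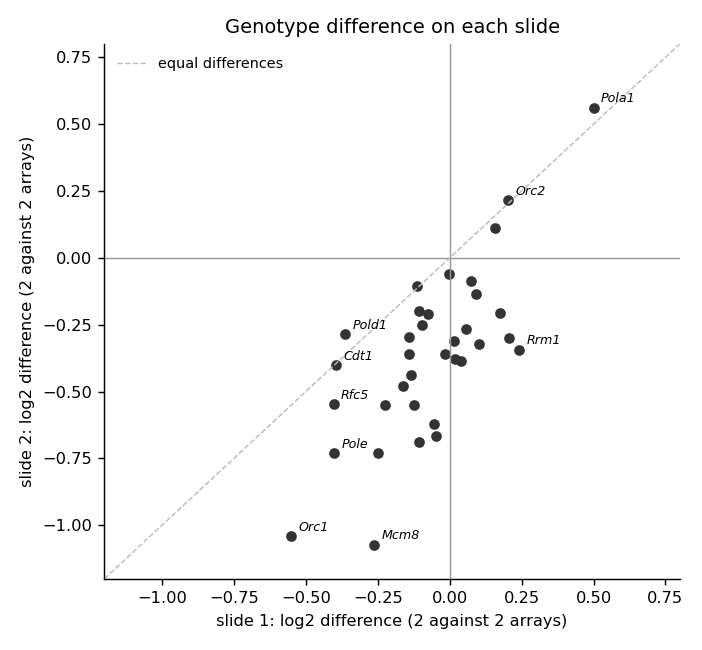
Log2 difference between genotypes on slide 1 (horizontal) and slide 2 (vertical) for the 35 genes, from 2 arrays of each genotype per slide. Points below the dashed line had a lower difference on slide 2. Pola1 lies close to the line, at 0.50 and 0.56, whereas Mcm8 is far below it, at -0.26 and -1.07.

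Markers of germ cells were low on the same arrays as the replication genes. All 10 genes of a germ cell list, among them Ddx4, Dazl, Tdrd1 and Tdrd9, had lower means in VRK1-deficient testes, with a median log2 difference of -1.04. With all 8 arrays 3 of them were called (Tdrd1, Tdrd9 and Dmrtb1), beside 1.98% of all tested probes called lower. All 10 were called lower without wild type replicate 1, with a median of -1.31, where 14.7% of all tested probes were called lower. The 3 calls were lost when any other single array was left out, with adjusted p values of 0.0727 to 0.151. At most 0.252% of all tested probes were called in those fits. The Tdrd9 probe lies on chromosome 12 near that of Vrk1 (mm7 starts 109593636 and 103556489). For Tdrd9, loss of VRK1 and sequence linked to the insertion cannot be told apart. Each of the 10 germ cell genes was well above background on all 8 arrays. Their summed linear signal, in multiples of the 75th percentile of an array, was 23.7 to 58.5 on the wild type arrays and 16.1 to 25.5 on the VRK1-deficient arrays, and the lowest wild type value was that of replicate 1. For the 35 replication genes the sum was 312 to 442 in wild type and 302 to 368 in VRK1-deficient testes. Relative to its mean over 8 arrays, the median germ cell gene stood at -0.33, 0.57, 1.01 and 0.84 on wild type arrays 1 to 4 and at -0.87, -0.23, -0.25 and -0.70 on VRK1-deficient arrays 1 to 4. The median replication gene stood at -0.23, 0.10, 0.29 and 0.26 on the wild type arrays and at -0.19, -0.022, 0.039 and -0.24 on the VRK1-deficient arrays. Both lists were thus lowest on wild type replicate 1 among wild type arrays, and both were lower on VRK1-deficient replicates 1 and 4 than on replicates 2 and 3. This order was not particular to germ cell markers. The other replication genes and the mitotic list, both described below, shared it, with medians of -0.19 and -0.16 on wild type replicate 1. The 6 measured genes of a spermatogonial list (Kit, Stra8, Sohlh2, Dmrtb1, Crabp1 and Lin28b) all had lower means, with a median of -1.38. Of them 2 were called (Lin28b and Dmrtb1), beside the same 1.98% of all tested probes. Dmrtb1 is in both lists and its call is counted in each. All 6 were called lower without wild type replicate 1, with a median of -1.71, and both calls were lost when any other single array was left out. Dazl, Rnf17, Mov10l1, Stra8, Crabp1 and Lin28b were named in the study as lower on these same arrays, so the direction of these lists is in part fixed by the choice of genes and is not independent evidence. The part of germ cell RNA in the differences of the replication genes was not tested.

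Lists of other cells differed less between genotypes or in the other direction. The calls below with all 8 arrays stand beside 3.66% of all tested probes called. Of 10 Sertoli cell genes, 9 had higher means in VRK1-deficient testes, with a median of 0.33 and 0 called by limma (4 higher and 1 lower at an unadjusted p under 0.05). When wild type replicate 1 was left out, 6 of the 10 were called higher, with a median of 0.49, where 13.7% of all tested probes were called higher. On wild type replicate 1 the median Sertoli cell gene stood at 0.29, above the other 3 wild type arrays. The sum of these 10 genes was 302 to 457 in wild type and 386 to 466 in VRK1-deficient testes. Of 14 genes of mitosis, 6 were lower and 8 higher, with a median of 0.0062 and 1 called. Without wild type replicate 1 the median was -0.031, and 2 were called higher and 1 lower. The sum of these 14 genes was 105 to 133 in wild type and 96.8 to 120.2 in VRK1-deficient testes, and their median stood lowest on wild type replicate 1 (-0.16) and VRK1-deficient replicate 4 (-0.11). The called gene was Cdk1, the kinase that drives entry into mitosis, which was higher by 0.48 ± 0.11 (SE) (limma adjusted p 0.0492). Its adjusted p was 0.00867 without wild type replicate 1 and 0.0714 to 0.151 when any other single array was left out, so the call was lost there. At most 0.252% of all tested probes were called in these latter fits. Mki67, a common marker of cycling cells, had a difference of 0.053 ± 0.12 (SE), and Top2a, the topoisomerase of dividing cells, one of 0.0053 ± 0.19 (SE). Other genes of the mitotic list lay further out on both sides. Bub1 had -0.51 ± 0.29 (SE), Ccnb1 -0.46 ± 0.27 (SE) and Cdc20 -0.36 ± 0.13 (SE), the last with no overlap between genotypes. Cenpa had 0.60 ± 0.24 (SE) and Kif11 0.46 ± 0.15 (SE). The medians of 5 Leydig cell, 4 peritubular and 4 macrophage genes were 0.20, -0.069 and 0.090, and 1 gene of these lists was called, Cnn1 of the peritubular list, which was lower. Without wild type replicate 1 the medians were 0.33, -0.059 and 0.11, and 1 Leydig cell gene was called higher and 1 peritubular gene lower. The call of Cnn1 was lost when any other single array was left out, with adjusted p values of 0.0662 to 0.147, among the same low share of calls. The part of any of these lists in the differences of the replication genes was not tested.

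**Figure D4:**
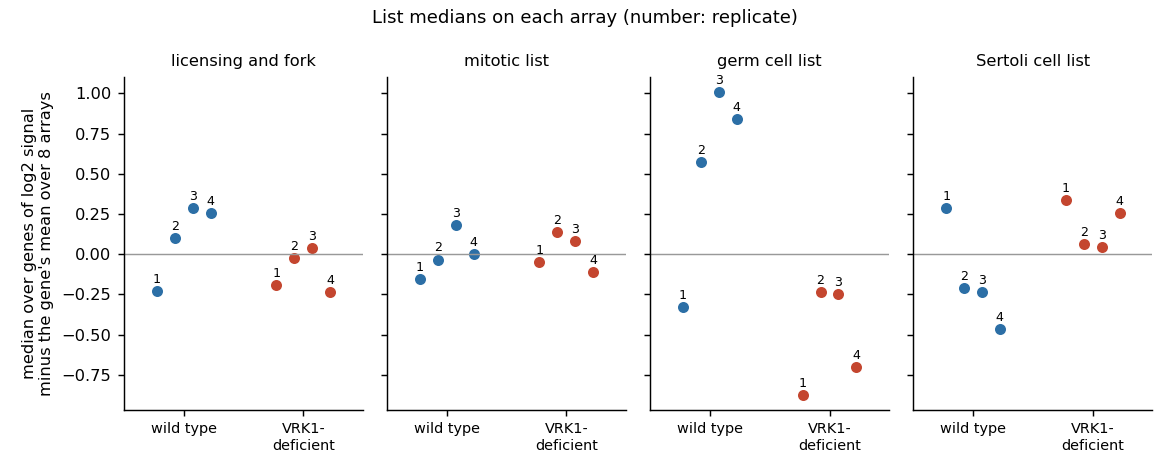
Median over the genes of a list of the log2 signal minus the mean of each gene over 8 arrays (vertical), for the 35 licensing and fork genes and 3 marker lists. Each point is an array and its number is the replicate. The replication genes and the germ cell genes are both lowest on wild type replicate 1 among the wild type arrays, at -0.23 and -0.33, where the Sertoli cell genes are highest, at 0.29.

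Beyond these genes, 42 other replication genes had a probe, for single-strand binding protein, accessory polymerase subunits, fork protection, chromatin assembly, nucleotide supply and E2F factors, and 41 passed the filter on dim probes. The probe of E2f4 was not well above background on any array. Of the 41, 3 were called lower and 0 higher, which is 7.32% beside 3.66% of all tested probes, and 27 were lower and 14 higher in all, with a median of -0.11. Recql4, a helicase that takes part in the start of replication, had a log2 difference of -0.84 ± 0.14 (SE) (limma adjusted p 0.0407). Chtf18, a subunit of an alternative clamp loader, had -0.84 ± 0.16 (SE) (adjusted p 0.0453), and E2f2, a transcription factor of the E2F family, had -0.70 ± 0.16 (SE) (adjusted p 0.0498). For all 3, every VRK1-deficient array was below every wild type array. Of the E2F factors, E2f2 thus passed the test, while E2f1 had a difference of 0.055 ± 0.13 (SE) and E2f3 one of -0.13 ± 0.14 (SE). Each of the 3 calls was lost when any single array other than wild type replicate 1 was left out, with adjusted p values of 0.0599 to 0.153. At most 0.252% of all tested probes were called in those fits. Without wild type replicate 1 the adjusted p values were 0.00380, 0.00390 and 0.00686. Without a filter on dim probes the adjusted p was 0.0775 for Recql4, 0.0882 for Chtf18 and 0.0956 for E2f2, and by the methods' t-test 0.0565, 0.0767 and 0.0910. For E2f2 it was also 0.0525 with quantile normalization, 0.0593 without scaling and 0.0545 with slide as a block. Higher genes came near the threshold as well, and those named here and the accessory polymerase subunits above were chosen after their values were seen. Beside Pold4, Tk1, the thymidine kinase of S phase, had a difference of 0.38 ± 0.10 (SE) (adjusted p 0.0640) with no overlap between genotypes, and Rpa3, a subunit of the single-strand binding protein, had 0.65 ± 0.20 (SE) (adjusted p 0.0803). Without wild type replicate 1, 11 of the 41 genes were called lower and 3 higher, with a median of -0.15. With all 8 arrays, 2 genes were called higher with an intensity trend and robust variances, and 1 was with normexp, with the filter on all arrays, with the mean of all probes and with replicate number as a block.

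Prim2, the large subunit of primase, had the largest mean difference of these genes, -3.44 ± 1.40 (SE), and it came from 2 arrays. Its probe read 0.11, 0.71, 1.11 and 1.07 on wild type arrays 1 to 4 and 0.23, -5.78, -5.55 and 0.33 on VRK1-deficient arrays 1 to 4. VRK1-deficient replicates 1 and 4 lay within the wild type range and replicates 2 and 3 were more than 5 units below every other array, 3 of the 4 VRK1-deficient arrays counted as well above background, and the limma adjusted p was 0.147. Mean values of Prim2 therefore describe neither pair of arrays. The second probe for Prim2 was not well above background on any array. The arrays on which Prim1 and Pola1 were high or low did not divide in this way.

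**Figure D5:**
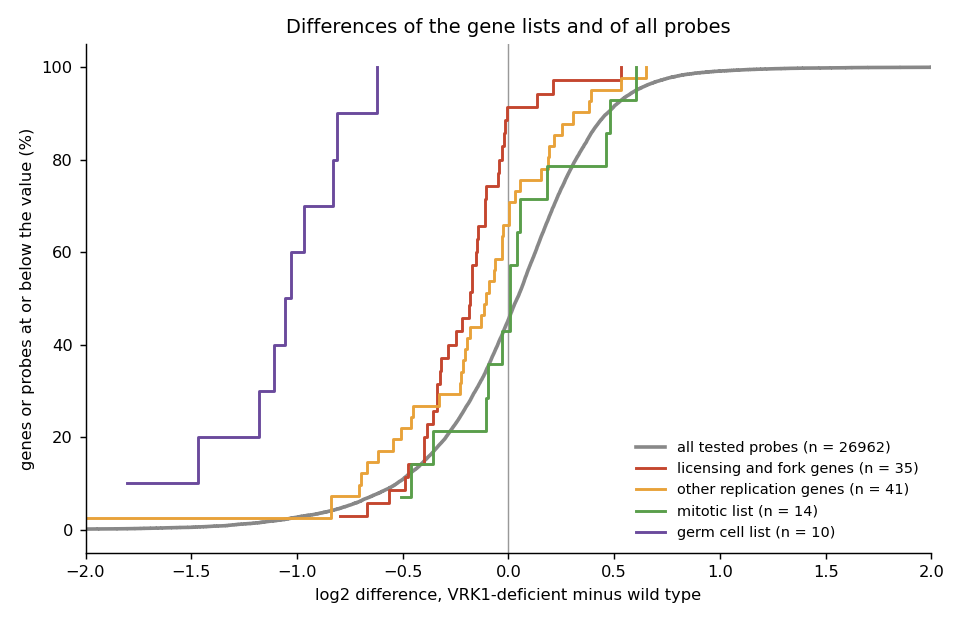
Cumulative share of genes or probes (vertical, in percent) with a log2 difference at or below the value on the horizontal axis, for the licensing and fork genes, other replication genes, a mitotic list, a germ cell list and all 26962 tested probes. The median of the licensing and fork genes (-0.18) lies left of that of all probes (0.041) and right of that of the germ cell list (-1.04), and the curve of the licensing and fork genes starts at -0.80. Prim2, at -3.44, lies outside the horizontal range.

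Genes with E2F letters in the promoter did not stand clear of those without. The 14 genes with a match had a median log2 difference of -0.27, with 13 below 0, and the 15 measured genes with a promoter but no match had one of -0.17, also with 13 below 0. Orc1 and Pola1, whose stretches are printed above, were the genes at -0.80 and 0.53, the lower and the upper end of the whole list. Genes with and without these letters thus covered overlapping ranges, and this split was not tested.

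Of the 35 genes, 10 had more than 1 tested probe, and for 5 of these the probes differed in sign. For Orc3, 4 probes gave -0.022 to 0.57, and for Orc4, 3 probes gave -0.25 to 0.33. The dimmer probe of Cdc6 was positive, as given above, while the probes of Mcm3 and Rfc2 lay within 0.15 of 0. The probes of Mcm8, Cdc7, Dbf4, Gins1 and Pold1 had 1 sign for each gene, and the 2 Pold1 probes gave -0.32 and -0.32. When the probes of each gene were averaged in place of taking the brightest, 30 of the 35 genes were lower and 1 was called.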

How the data were processed

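Total RNA of whole testes was labeled with Cy3 and hybridized to 1-color Agilent mouse arrays, 1 replicate per array, by the authors. Signals were extracted with Agilent Feature Extraction 9.5.3.1 per the submitters' processing notes. The deposited processed signals are linear intensity values, background-subtracted and not scaled between arrays, and a second deposited table repeats them. The authors named GeneSpring GX for later steps.

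Spots marked as outliers (58 to 134 per array) were left out, and no spot other than controls was saturated. The deposited intensity values were converted to log2, scaled by subtracting the log2 of the 75th percentile over all non-control spots of the same array, and averaged over repeated spots of 1 probe. That percentile lay between 548 and 851, and 63.6% to 69.5% of spots passed as well above background. Precision is limited by having 4 arrays per genotype. A probe was tested where 4 or more of the 8 arrays were well above background (26962 of 41174 probes). The test was limma's lmFit and eBayes (limma 3.58.1, R 4.3.3), with Benjamini-Hochberg adjustment over all tested probes, and a call needed an adjusted p under 0.05. The code was tested on simulated data. Other genes were paired with probes through RefSeq accession, symbol or synonym, and probe positions are those of the files (mm7). Array position was confounded with genotype. Same-numbered replicates were not treated as pairs.

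Genes named are all members with a probe, the called and the 3 furthest of the other replication genes, and genes of the marker lists. Mcm9, E2f1, E2f3, E2f4, Tk1, Rpa3 and the accessory polymerase subunits were named outside this rule. Arrays are given one by one for Vrk1, Pola1, Pcna, Mcm2, Prim2 and the member furthest from wild type in each role group. Members, lists and tests were chosen with earlier results of these data known. The alternatives were quantile normalization, normexp with an offset of 50, no scaling, no filter on dim probes or a stricter one that asks for all 8 arrays, averaging the probes of each gene, names through the RefSeq table, slide or replicate number as a block, each slide alone, each array left out, limma with its trend and robust options, and the methods' t-test. Figures were made with matplotlib 3.10.9, and tables with Python 3.11.15, numpy 2.4.6, pandas 2.3.3, scipy 1.17.1 and the R package data.table (version 1.17.8). Proteins, histology, flow cytometry and qRT-PCR were not analysed here.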

Additional observations from a re-analysis of the deposited data

Results flagged for a closer look

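The check for single arrays far from their group covered 40 genes, with 80 groups of 4 arrays, and marked 1 of them, where chance marks about 1 in 20. For Mcm5, wild type replicate 1 read 3.80 on the log2 scale, while the other 3 wild type arrays lay between 4.19 and 4.25, and the gap took 85.8% of the range of the group.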

How the results depend on the processing

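With each array left out in turn, the number of called replication genes ran from 0 to 14 (1 with all 8 arrays), the number of other replication genes called from 0 to 14 (3 with all 8), the number without overlap between genotypes from 5 to 19, and the median log2 difference from -0.29 to -0.14. The upper counts all came from leaving out wild type replicate 1. With any other single array left out, 3 to 68 of all tested probes were called, against 986 with all 8 arrays. The called replication genes numbered 2 with normexp (Pole and Pola1), 0 without scaling, 0 without a filter on dim probes and 0 on either slide alone. The other replication genes called numbered 5 with normexp, 0 without a filter, 0 on either slide alone, 0 by the methods' t-test after adjustment and 5 with an intensity trend and robust variances. Of all probes in each fit, 5.24% were called with normexp, 3.40% without scaling and 7.11% with the trend and robust variances. The share was 0.041% without a filter, 0.011% on slide 1, 3.93% on slide 2 and 0.60% by the t-test. Counts of 0 without a filter, on slide 1 and by the t-test are therefore near the background. Without overlap were 1 gene without scaling, 10 on slide 1 alone and 25 on slide 2 alone. Genotypes separate more easily with fewer arrays. The counts from 1 slide or with an array left out therefore cannot be set against that from all 8 arrays. Shares without overlap over all tested probes were not computed for these alternatives. Without scaling, 852 of all probes were called lower and 64 higher, against 535 and 451. The median of the replication genes stayed below 0 in every alternative run. The count of genes that differed between slides stayed at 0 in all of its alternatives, but with all 8 arrays no tested probe passed either. The cause of these changes was not tested.

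Of the 40 genes followed, 14 changed the sign of their log2 difference in at least 1 of 20 alternatives, in 30 of 799 values, none of which passed the test. On slide 1 alone these were Mcm4 (0.057), Mcm7 (0.018), Orc3 (0.091), Orc4 (0.041), Orc6 (0.014), Gins1 (0.17), Pcna (0.21), Rfc3 (0.073), Prim1 (0.10) and Rrm1 (0.24). With the mean of all probes, Orc3 was 0.17 and Cdc6 0.13, and without scaling Orc5 was -0.044. With each array left out in turn, Mcm3 ran from -0.28 to 0.072, Orc3 from -0.12 to 0.11, Gins1 from -0.11 to 0.065, Pcna from -0.17 to 0.064, Rfc2 from -0.083 to 0.025, Rfc3 from -0.053 to 0.053 and Rrm1 from -0.12 to 0.073. Of the other values, 48 were called with all 8 arrays and not in the alternative, and 14 the reverse.

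Whether the replicate numbers pair the samples is not settled. Deviations of same-numbered arrays from their group means correlated at 0.47, 0.073, 0.19 and -0.14 for numbers 1 to 4. Between arrays of different numbers the correlations ran from -0.37 to 0.27. With replicate number as a block, 1 replication gene and 4 other replication genes were called, and 2280 of all probes against 986.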
